A study of Mus musculus with 9 samples.

Results

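FVB MOE cells are mouse oviductal epithelial cells in culture, and the samples described here are the 3 that received only the solvent DMSO, of 9 RNAseq samples in all. They were chosen by their treatment label and not by any measured value. The other 6 samples, 3 with 1 nM 17β-estradiol (E2) and 3 with 100 nM 4-hydroxytamoxifen (4OHT), were not compared with them. Per the study's methods and labels, the line was made from the FVB strain, is 1 clone of secretory cells, and is kept in medium with serum, epidermal growth factor, insulin, transferrin and 18.2 ng/mL E2. For all 9 samples the cells were starved of hormone for 48 h in phenol-red-free medium with charcoal-stripped serum, which was renewed once, and treated for 24 h, here with 0.1% DMSO. The starvation medium as labelled held none of the added growth factors. The 3 samples are numbered as replicates 1 to 3. Nothing in the labels says that they came from separate cultures, so the spread between them may be technical, and a single clone says nothing of how oviductal cells vary between animals.

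The oviduct is the mouse counterpart of the human fallopian tube. Its epithelium holds secretory cells, known for the transcription factor PAX8 and for the proteins they release into the lumen, and ciliated cells, whose program is driven by FOXJ1. Both arise from the müllerian duct, a mesodermal tube that expresses PAX, EMX2 and HOX factors. Epithelial cells are commonly told from mesenchymal cells by keratins, E-cadherin and tight junction proteins on the epithelial side, and by vimentin, N-cadherin and fibrillar collagens on the mesenchymal side. In culture many epithelial cells carry genes of both kinds.

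The promoters of the genes on which the account of cell identity turns are shown first, as the 250 bases before the RefSeq start of each gene on mouse GRCm38.p6, written on the strand of the gene. Krt8 and Krt18 are shown because their products pair into the keratin filaments of simple epithelia. Vim is shown as the most abundant of the 7 markers given for these cells, Pax8 as the secretory lineage factor, and Epcam as an epithelial gene that was near 0. Capitals mark CpG dinucleotides, the sites at which mammalian DNA is methylated. Methylation was not measured in these samples.
Krt8, chr15:102004343-102004592, minus strand: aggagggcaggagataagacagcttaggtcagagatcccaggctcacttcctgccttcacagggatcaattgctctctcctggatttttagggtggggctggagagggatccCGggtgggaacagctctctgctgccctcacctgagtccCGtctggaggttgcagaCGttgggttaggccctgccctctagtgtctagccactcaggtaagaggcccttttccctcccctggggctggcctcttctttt
Krt18, chr15:102027966-102028215, plus strand: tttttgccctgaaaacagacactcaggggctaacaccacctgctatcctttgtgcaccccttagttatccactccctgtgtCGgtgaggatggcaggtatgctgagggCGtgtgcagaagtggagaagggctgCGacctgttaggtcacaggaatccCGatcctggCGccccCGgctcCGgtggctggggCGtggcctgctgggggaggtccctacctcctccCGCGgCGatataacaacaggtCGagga
Vim, chr2:13574061-13574310, plus strand: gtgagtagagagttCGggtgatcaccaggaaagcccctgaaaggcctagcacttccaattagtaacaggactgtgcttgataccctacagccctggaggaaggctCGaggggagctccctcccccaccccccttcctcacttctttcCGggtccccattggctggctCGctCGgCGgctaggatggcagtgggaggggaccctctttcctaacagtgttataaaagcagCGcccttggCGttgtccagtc
Pax8, chr2:24475600-24475849, minus strand: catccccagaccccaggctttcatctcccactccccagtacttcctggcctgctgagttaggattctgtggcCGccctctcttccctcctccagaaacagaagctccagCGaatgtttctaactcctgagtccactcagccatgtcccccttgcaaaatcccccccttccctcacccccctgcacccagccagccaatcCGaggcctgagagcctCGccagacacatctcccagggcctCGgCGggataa
Epcam, chr17:87635729-87635978, plus strand: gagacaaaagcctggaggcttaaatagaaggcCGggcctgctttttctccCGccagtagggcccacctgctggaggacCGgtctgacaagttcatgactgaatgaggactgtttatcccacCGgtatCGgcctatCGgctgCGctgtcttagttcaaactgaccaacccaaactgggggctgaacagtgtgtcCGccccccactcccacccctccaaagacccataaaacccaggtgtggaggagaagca
The windows held 3 CpG for Krt8, 12 for Krt18, 8 for Vim, 6 for Pax8 and 8 for Epcam. Krt8 lies at chr15:101996711-102004342 on the minus strand and Krt18 at chr15:102028216-102032026 on the plus strand, so that the starts stand 23.9 kb apart, back to back. With the 50 bases after the start added, the letters TATAAA, searched on both strands, were in the windows of Vim, where they lie before the start, and of Krt8, where they lie after it. They were in 14.2% of 27025 RefSeq promoter windows of the same 300 bases. The letters GGGCGG, searched likewise, were in the windows of Pax8 and Epcam, and in 35.9% of all windows. So Epcam and the far more abundant Pax8 shared these letters, and the match is a description of the sequence only.

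Expression was given as FPKM, a fragment count divided by transcript length and library size, so that levels can be set side by side between genes. Values below are FPKM, a mean is given as mean ± SD (n = 3), and a row was called expressed when it stood at 1 FPKM or more in all 3 samples. Of 23332 gene rows, 10788 were expressed, which is 46.2%, and 5858, which is 25.1%, were listed at 0 in all 3. Between these lay rows with low values and 2340 rows listed at 0 in only 1 or 2 samples. Levels of 10 FPKM or more in all 3 samples were reached by 6295 rows, 100 or more by 750 and 1000 or more by 67. Among the expressed rows the median level was 14.3 FPKM and the median coefficient of variation was 8.12%. No treatment was compared and no test was made, since an exact paired permutation test over 3 samples cannot go below p = 0.25. The order of genes is therefore stated by whether the ranges of the 3 samples overlap.

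Replicate 1 stood apart from the other 2 samples. It was at least 1.5 times above both of them in 261 expressed rows and at least 1.5 times below both in 163, together 3.93% of the expressed rows. The same share was 0.973% for replicate 2 and 0.964% for replicate 3. Across all rows, Pearson's r of log2(FPKM + 1) was 0.986 between replicates 1 and 2, 0.984 between 1 and 3 and 0.988 between 2 and 3. Leaving out rows listed at 0 in some samples gave 0.995, 0.995 and 0.998. These are correlations across genes, which are not independent replicates. The read totals that the study states were not used here. From steps in the low values of the files, replicate 2 was estimated to hold 1.18 times and replicate 3 to hold 1.046 times the reads of replicate 1. Means without replicate 1 are given below for genes in which it stood apart.

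The most abundant transcripts came from the protein synthesis machinery, the iron store, the actin skeleton and small calcium-binding and heat shock proteins. Ftl1, the light chain of ferritin, led with 5169, 5510 and 5400 FPKM, and its lowest sample lay above the highest sample of every other gene. Rps12, a protein of the small ribosomal subunit, followed at 4570 ± 465 FPKM, S100a6, a calcium-binding protein, at 4436 ± 463 FPKM, and Eef1a1, the factor that brings aminoacyl-tRNA to the ribosome, at 4402 ± 186 FPKM. The ranges of these 3 genes overlapped, so their order is not settled. Actb, cytoplasmic beta actin, stood at 2321 FPKM in replicate 1 and at 3732 and 3473 FPKM in the others. Actg1, gamma actin, was also lowest in replicate 1, with 2504 FPKM in replicate 1 and 3319 and 3363 FPKM in replicates 2 and 3. The ranges of both actins overlapped.

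**Figure D1:**
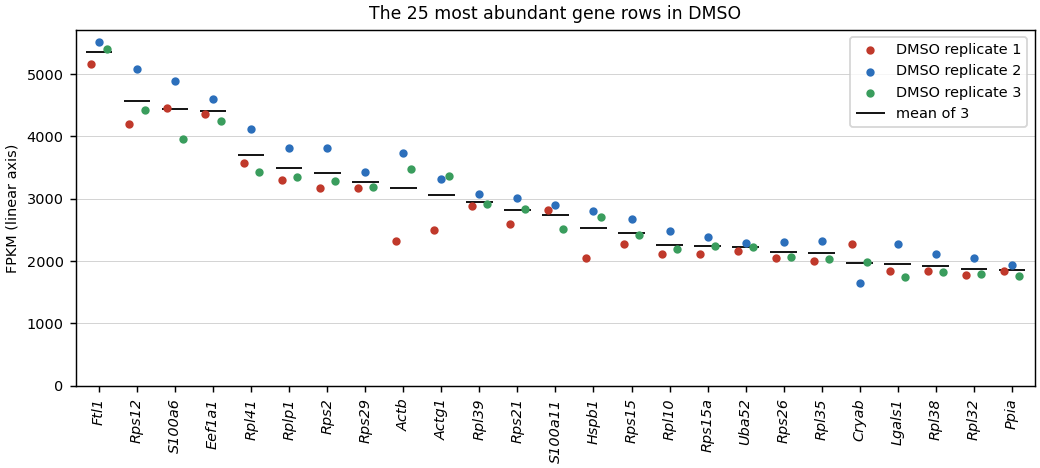
FPKM of the 25 gene rows of highest mean in the 3 DMSO samples (points, linear axis from 0) with their mean (line). Ftl1 stood above the other rows with 5360 ± 174 FPKM, and Actb was lower in replicate 1 (2321 FPKM) than in the other samples.

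Cytosolic ribosomal protein genes made up 14 of the 25 most abundant rows and 55 of the top 100. Of 83 such rows 78 were expressed, or 94.0% beside 46.2% over all rows. Together the 83 rows took 19.1% of the summed FPKM. The 10 most abundant rows held 7.23 ± 0.361% of the summed FPKM, the top 100 held 30.1 ± 1.12% and the top 1000 held 64.9 ± 0.905%. The abundant rows came from short genes. The median longest transcript was 1160 bases for the top 100 rows, 3389 bases for the expressed rows and 1844 bases for rows listed at 0 in all samples. Beside the ribosomal genes stood 2 small heat shock proteins. Hspb1 was measured at 2523 ± 410 FPKM, and Cryab, alpha B crystallin, a chaperone best known from lens and muscle, at 2267, 1651 and 1983 FPKM. Lgals1, the secreted lectin galectin 1, stood at 1950 ± 280 FPKM and overlapped Cryab. S100a11, another calcium-binding protein of the S100 family, stood at 2742 ± 203 FPKM. Common reference genes were all expressed, 14 of 14, from Tbp, the TATA-binding protein, at 16.8 ± 0.324 FPKM to Eef1a1.

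The 7 markers given for these cells spanned levels from 2.24 to 1731 FPKM. Vim, the intermediate filament protein vimentin, was the highest with 1641, 1905 and 1646 FPKM, rank 28 of all rows. Krt18 stood at 428, 510 and 549 FPKM, and Krt8 at 334, 418 and 465 FPKM. The ranges of this keratin pair overlapped, although Krt18 was the higher of the pair in each of the 3 samples. Msln, mesothelin, a surface glycoprotein of mesothelium and müllerian epithelium, was listed at 118, 179 and 188 FPKM. Pax8 stood at 142, 107 and 107 FPKM, with replicate 1 the highest for Pax8 and the lowest for Msln. The ranges of Msln and Pax8 overlapped, and without replicate 1 their means were 184 and 107 FPKM. Foxj1, the ciliated cell factor, stood at 13.6, 15.3 and 15.9 FPKM, far below Pax8 but close to the median level of expressed rows. Ovgp1, the oviduct-specific glycoprotein that gives the organ its best known secreted product, was at 1.99, 2.11 and 2.61 FPKM. None of the ranges of Vim, Foxj1 and Ovgp1 touched that of another marker.

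Lineage factors of the müllerian duct and oviduct were expressed in 12 of 20 cases, or 60.0%, with a median level of 9.75 FPKM, beside 46.2% and a median of 0.671 FPKM over all rows. The other 8 factors were under 0.1 FPKM in all 3 samples, beside 40.1% of all rows. Pax2, the close relative of Pax8, stood at 72.9, 51.7 and 49.8 FPKM. Emx2, which is needed for the urogenital tract to form, stood at 46.8, 32.1 and 34.4 FPKM. Wt1, a zinc finger factor of gonad, kidney and mesothelium, stood at 45.3, 26.3 and 27.5 FPKM. In Pax8, Pax2, Emx2 and Wt1 replicate 1 was the highest sample, and without it their means were 107, 50.8, 33.3 and 26.9 FPKM. Meis2, a cofactor of HOX proteins, had 21.7 ± 2.11 FPKM, and Runx1 had 18.5 ± 1.08 FPKM. Msx2 reached 12.1 ± 3.05 FPKM, while its relative Msx1 was listed at 0.0171 FPKM in replicate 1 and at 0 in the others. Gata6, Tcf21 and Foxa2, the last a factor of glandular epithelium, were listed at 0 in all 3 samples. Sox17 and Gata4 were at 0 in 2 samples each and at 0.00756 and 0.00844 FPKM in the other.

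HOX genes pattern the body axis and the reproductive tract along its length. Of 38 HOX rows, 11 were expressed and 22 were listed at 0 in all 3 samples, shares of 28.9% and 57.9%, beside 46.2% and 25.1% over all rows. The list was without Hoxb3, Hoxb5 and Hoxb6, so the Hoxb cluster is described in part only. Every expressed row belonged to the Hoxa or the Hoxb cluster. Among the listed rows Hoxb9 led with 28.1, 32.8 and 35.5 FPKM. It was followed by Hoxb7 at 26.2 ± 1.74 FPKM, Hoxb8 at 21.9 ± 1.16 FPKM and Hoxb2 at 20.1 ± 1.67 FPKM. The ranges of Hoxb9 and Hoxb7 touched, as did those of Hoxb8 and Hoxb2. In the Hoxa cluster the expressed members included Hoxa2 to Hoxa5, with Hoxa3 highest at 9.47 ± 0.768 FPKM in the higher of its rows. Hoxa9, Hoxa10, Hoxa11 and Hoxa13, known for their sequential domains along the female tract from oviduct to vagina, were each listed at 0 in all 3 samples, as were Hoxa6 and Hoxa7. The highest value of any Hoxc or Hoxd row was 0.0127 FPKM, for Hoxc8 in replicate 2.

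**Figure D2:**
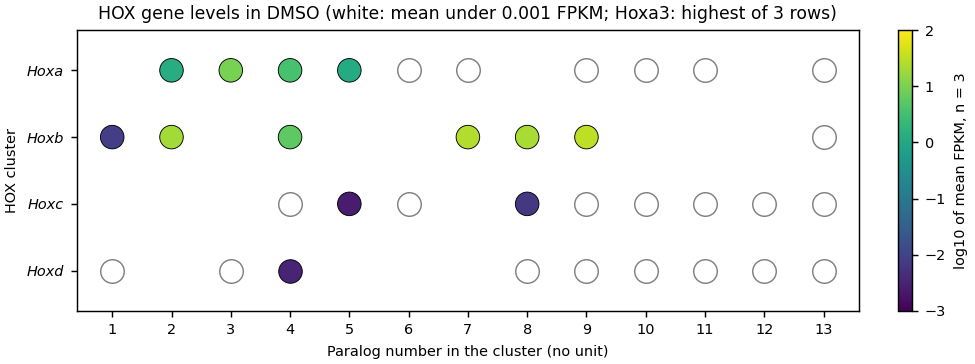
Mean level of HOX genes in the 3 DMSO samples (colour, log10 of mean FPKM), by cluster and paralog number, with white circles for means under 0.001 FPKM. The filled bright circles are Hoxa2 to Hoxa5 and the Hoxb genes led by Hoxb9 at 32.1 FPKM, while Hoxa6 to Hoxa13 are white. Hoxb3, Hoxb5 and Hoxb6 were not in the list and are not drawn.

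Secreted and surface products of secretory cells were measured at very unequal levels, with a median of 2.24 FPKM. Of 15 rows 9 were expressed, or 60.0% beside 46.2% over all rows. Cd24a, a glycoprotein of the cell surface, stood at 1068, 619 and 730 FPKM. Spp1, the secreted phosphoprotein osteopontin, stood at 795, 469 and 492 FPKM, below the Cd24a value of the same sample each time. Clu, the secreted chaperone clusterin, stood at 306, 103 and 118 FPKM. C3, the central complement component, which the oviduct is known to secrete, was at 166, 52.3 and 55.5 FPKM. In Cd24a, Spp1, Clu and C3 replicate 1 was the highest sample and did not overlap the others, and the means without it were 675, 480.4, 110 and 53.9 FPKM. The protease inhibitor gene Slpi was at 8.33 ± 3.31 FPKM and Lcn2, which binds bacterial siderophores, at 2.85 ± 1.09 FPKM. Wfdc2, which codes for the tumour marker HE4, was at 1.28 ± 0.172 FPKM, and Muc1, the cell surface mucin, at 0.363 ± 0.142 FPKM. Pigr, the transporter of IgA, and Ltf, lactoferrin, reached 0.0112 and 0.0230 FPKM at most, and the Spink3 row, the mouse counterpart of SPINK1, was listed at 0.

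Genes of ciliated cells were mostly at or near 0 beyond Foxj1. Of 25 rows 5 were expressed, which is 20.0% beside 46.2% over all rows, and the list median was 0.0667 FPKM. The expressed rows were Foxj1, the radial spoke gene Rsph1 at 3.10 ± 0.112 FPKM, the RFX factors Rfx3 at 2.18 ± 0.225 FPKM and Rfx2 at 1.68 ± 0.226 FPKM, and Ccdc39 at 1.45 ± 0.254 FPKM. Regulators that act before Foxj1 were at or near 0. Gmnc (row Gm606), Myb and Trp73 were listed at 0 in all 3 samples, and Mcidas (row Gm6320) stood at 0.0424 ± 0.0110 FPKM. Motor proteins of the axoneme were near 0, with Dnah5 (row Dnahc5) at 0.0402 ± 0.0113 FPKM, and with Dnah11 (row Dnahc11) and Dynlrb2 listed at 0. Hydin, of the central pair apparatus, reached 0.00232 FPKM at most. In bulk RNA fewer cells of a type and less RNA per cell cannot be told apart, so the values do not say whether Foxj1 came from few cells or from many.

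The epithelial list was led by keratins, while E-cadherin, occludin and Epcam were under 1 FPKM. Of 30 rows 16 were expressed, or 53.3%, near the 46.2% of all rows, with a median of 2.45 FPKM. Krt7, a keratin of simple ducts, stood at 439, 222 and 267 FPKM, the highest in replicate 1, and its mean without that sample was 245 FPKM. Krt19, the smallest keratin, was at 144 ± 29.1 FPKM and was lowest in replicate 1. Perp, a desmosome protein, stood at 126 ± 20.2 FPKM, Jup, plakoglobin, at 49.7 ± 5.73 FPKM and Pkp2, plakophilin 2, at 49.6 ± 4.29 FPKM. Tjp1, the scaffold protein ZO-1, was at 31.7 ± 1.22 FPKM. Some other adhesion and junction genes of the list were under 1 FPKM. Cdh1, E-cadherin, stood at 0.310, 0.211 and 0.393 FPKM, Epcam at 0.0318 ± 0.0146 FPKM and Ocln, occludin, at 0.0398 ± 0.0396 FPKM. Cldn3 was at 0 in 2 samples and 0.0355 FPKM in the other, and Cldn7 was at 0.120 ± 0.0766 FPKM. Among regulators of the epithelial state, Elf3 stood at 35.5, 14.5 and 16.2 FPKM, while Grhl2, an activator of Cdh1, was at 0.606 ± 0.124 FPKM, Esrp1, a splicing regulator, reached 0.00611 FPKM at most, and Ovol2, a repressor of mesenchymal genes, was listed at 0. Esrp2, the relative of Esrp1, was expressed at 6.57 ± 1.33 FPKM.

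The mesenchymal list held genes at very high levels and genes at 0. Of 27 rows 14 were expressed, or 51.9%, near the 46.2% of all rows. The median was 2.69 FPKM, near the 2.45 FPKM of the epithelial list. After Vim came Acta2, smooth muscle actin, at 932, 1042 and 1414 FPKM, and Tagln, transgelin, at 338, 478 and 685 FPKM. Both were highest in replicate 3. Sparc, a secreted matrix glycoprotein, was at 406 ± 49.1 FPKM. Cdh2, N-cadherin, stood at 36.6 ± 2.86 FPKM, with its lowest sample far above the highest of Cdh1. Zeb2 and Zeb1, repressors of Cdh1, were at 8.35 ± 1.42 and 5.69 ± 0.314 FPKM with ranges that did not overlap, and Snai2, of the same function, was at 3.24 ± 1.07 FPKM. Several genes known from fibroblasts were near or at 0, whereas Col1a1 and Postn of the same list were expressed, at levels given below. Col1a2 and Col3a1, of the fibrillar collagens, reached 0.00875 and 0.00566 FPKM at most, Pdgfra and Pdgfrb stood at 0.0839 ± 0.02002 and 0.0434 ± 0.00829 FPKM, and Thy1, Lum and Fap were listed at 0 in all 3 samples. Dcn, decorin, stood at 5.87 FPKM in replicate 1 and at 0.652 and 0.416 FPKM in the others. Fn1, fibronectin, was listed at 893 FPKM in replicate 1 and at exactly 0 in the other 2 samples, so it was not counted as expressed. This is taken up with the other zeros below.

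**Figure D3:**
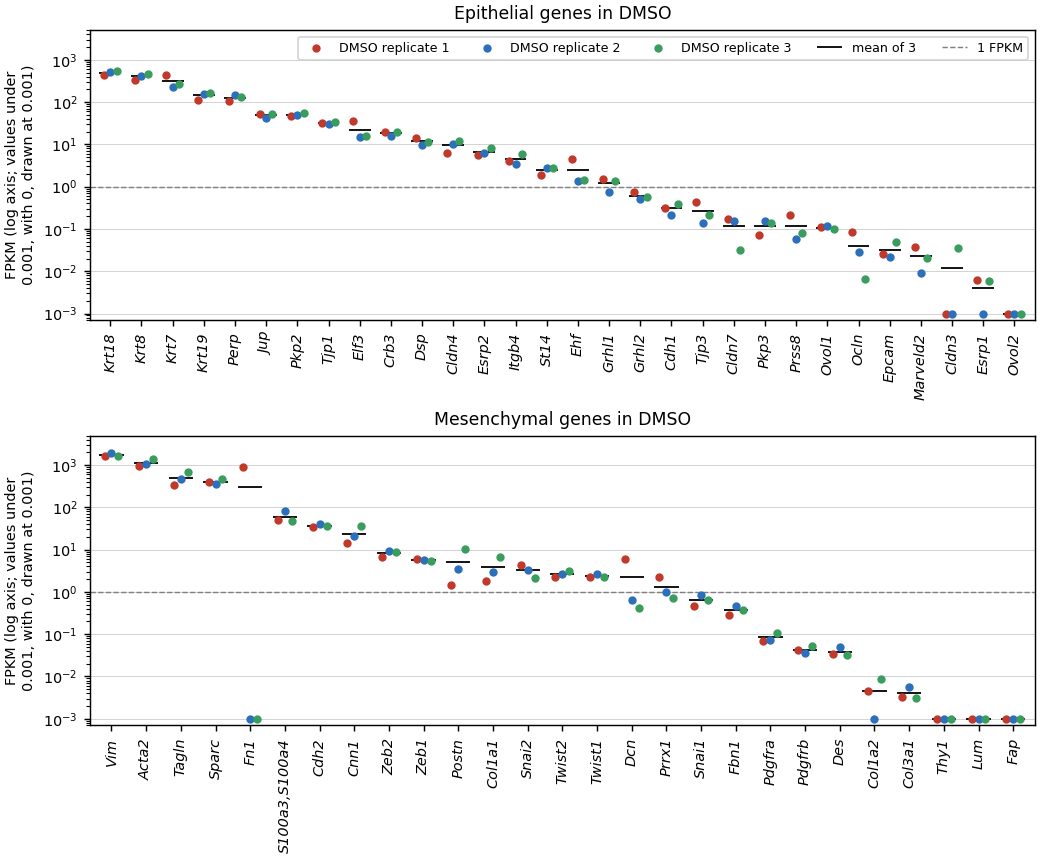
FPKM of 30 epithelial (top) and 27 mesenchymal genes (bottom) in the 3 DMSO samples on a log axis, with the mean as a line and values under 0.001 drawn at 0.001. Krt18 (496 FPKM), Krt8 (406 FPKM) and Vim (1731 FPKM) lead both lists, and Cdh1 (0.305 FPKM) lies far below Cdh2 (36.6 FPKM).

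Keratins and junction families were each expressed in few members. Of 51 keratin rows 8 were expressed, led by Krt18, Krt8, Krt7 and Krt19, with Krt80 next at 19.7 ± 1.43 FPKM, and Krt5, a keratin of basal cells, stood at 1.26 ± 0.227 FPKM. Krt14, its usual partner, was at 0.0242 ± 0.0121 FPKM. Of 23 classical and related cadherins 5 were expressed. Cdh16, known from kidney tubules, had the highest mean, with 132, 103 and 103 FPKM, and Cdh6 had 138, 50.6 and 70.8 FPKM. Their ranges overlapped, and both were highest in replicate 1. Of 26 claudins 5 were expressed, with Cldn1 at 119 ± 10.7 FPKM and Cldn12 at 61.0 ± 6.47 FPKM. Cldn2, a claudin that forms cation pores, had 32.9, 11.3 and 13.5 FPKM. Of 19 connexins 2 were expressed, led by Gja1 at 51.9 ± 11.3 FPKM. Each of these 4 shares, between 10.5% and 21.7%, was below the 46.2% of all rows.

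Markers of other cells that an oviduct culture could hold ranged from lists near 0 to lists expressed about as often as all rows. Of 15 immune rows 2 were expressed, or 13.3% beside 46.2% over all rows, Csf1r at 4.60 ± 1.196 FPKM and Cd68 at 3.98 ± 0.0224 FPKM. Ptprc, the pan-leukocyte antigen CD45, stood at 0.00848 ± 0.00587 FPKM, and Tyrobp, Cd3e and Ms4a1 were listed at 0. The summed level of the immune list ran from 8.51 to 10.7 FPKM. Of 11 endothelial rows only Egfl7, at 2.36 ± 0.620 FPKM, was expressed, or 9.09% beside 46.2% over all rows. Pecam1 was at 0.0499 ± 0.0248 FPKM, and the list summed to between 3.74 and 4.90 FPKM. Of 9 smooth muscle rows 4 were expressed, which is 44.4% beside 46.2% over all rows. These were Acta2, Smtn at 239 ± 9.03 FPKM, Cnn1 at 23.8 ± 11.4 FPKM and Mylk at 2.92 ± 0.810 FPKM, while Myh11, the defining heavy chain, stood at 0.275 ± 0.0322 FPKM and Myocd, its activator, was listed at 0. Of 14 mesothelial and ovarian surface rows 6 were expressed, or 42.9%, among them Msln, Wt1 and Aldh1a2, an enzyme of retinoic acid synthesis, at 40.5 ± 2.797 FPKM. Upk3b was at 2.96 ± 0.383 FPKM, and Lrrn4, Calb2, Pdpn, Gpm6a and Stmn2 were listed at 0. Of 13 ovarian follicle rows 2 were expressed, or 15.4%, Inhba, the activin subunit, at 11.2 ± 3.801 FPKM and the higher of the Star rows at 4.11 ± 1.76 FPKM. Foxl2, Fshr, Inha and Cyp19a1 were listed at 0.

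Receptors for hormones were of interest because the cells had been deprived of steroids before sampling. Of 48 nuclear receptor genes 25 were expressed, which is 52.1% beside 46.2% over all rows, with a median of 1.46 FPKM. Another 5 were listed at 0, or 10.4% beside 25.1% over all rows. Nr2f6, an orphan receptor, led with 58.7, 66.0 and 66.0 FPKM, followed by Nr1h2, the oxysterol receptor LXR beta, at 41.0 ± 1.46 FPKM. Rarg, a retinoic acid receptor, stood at 22.4 ± 0.374 FPKM and Vdr, the vitamin D receptor, at 19.1 ± 4.29 FPKM. The ranges of Rarg and Vdr overlapped, whereas those of Nr2f6 and Nr1h2 overlapped with no other receptor. Nr1d2, a clock repressor, was at 18.6 ± 0.972 FPKM, Esrra, the estrogen-related orphan receptor, at 13.5 ± 0.810 FPKM, Rxra, the shared partner of many receptors, at 12.3 ± 0.626 FPKM and Pparg at 11.2 ± 1.03 FPKM. Nr3c1, the glucocorticoid receptor, stood at 10.3 ± 1.11 FPKM.

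Esr1, which codes for estrogen receptor alpha and lies at chr10:4611989-5005633, stood at 12.4, 5.98 and 5.995 FPKM. Pgr, the progesterone receptor gene and a classical estrogen target, stood at 9.58, 1.36 and 1.16 FPKM. Both receptor genes were highest in replicate 1, and without it their means were 5.99 and 1.26 FPKM. Greb1, another classical estrogen target, was also highest in replicate 1, with 14.3, 2.58 and 2.30 FPKM. Esr2, which codes for estrogen receptor beta, was at 0.110 ± 0.0103 FPKM, and the membrane estrogen receptor Gper1 (row Gpr30) was at 0.150, 0.226 and 0.336 FPKM. The highest sample of Esr2 and of Gper1 lay below the lowest sample of Esr1.

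**Figure D4:**
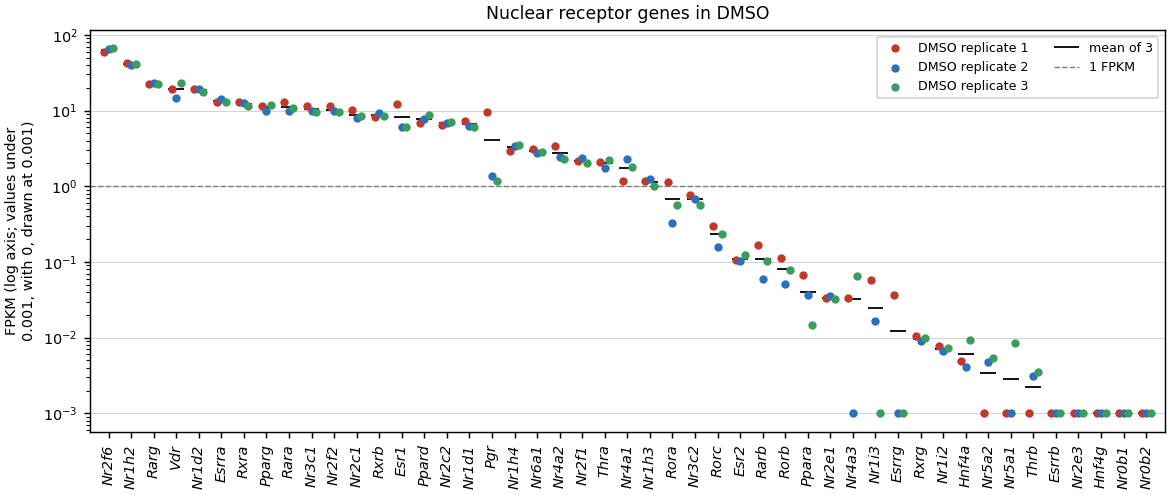
FPKM of nuclear receptor genes in the 3 DMSO samples on a log axis, ordered by mean (line), with values under 0.001 drawn at 0.001. Replicate 1 is the highest point for Esr1 (12.4 FPKM) and Pgr (9.58 FPKM), while Nr2f6 (63.6 FPKM) leads and 5 receptors lie at 0.

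Receptor tyrosine kinases were expressed in 25 of 58 cases, or 43.1%, close to the 46.2% of all rows. Another 9 were listed at 0, or 15.5% beside 25.1% over all rows. Axl, the receptor of the growth arrest factor GAS6, had the highest mean, with 98.4, 128 and 99.1 FPKM. Its ligand gene Gas6 reached 0.00927 FPKM at most. Epha2, an ephrin receptor, stood at 92.3 ± 13.7 FPKM and Ddr1, a collagen receptor, at 73.8 ± 8.04 FPKM. The range of Epha2 overlapped those of Axl and Ddr1. Met, the hepatocyte growth factor receptor, was at 37.1 ± 2.85 FPKM, and its ligand gene Hgf was listed at 0. Egfr, the receptor of epidermal growth factor, stood at 34.0, 34.7 and 35.02 FPKM. Among receptors for agents in the maintenance medium, Tfrc, which takes up transferrin, was the highest at 69.1 ± 11.0 FPKM, and Igf1r and Insr, which bind insulin-like growth factor and insulin, were at 16.6 ± 1.36 and 6.25 ± 0.821 FPKM. Erbb2 was at 10.4 ± 0.573 FPKM, Erbb3 at 1.60 ± 0.230 FPKM, and Erbb4 was listed at 0.

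Among other receptors, 9 of 15 of the TGF-beta family were expressed, or 60.0% beside 46.2% over all rows. Tgfbr2, the type II receptor of TGF-beta, led with 141 ± 16.3 FPKM. Tgfbr1, its type I partner, stood at 11.7 ± 1.64 FPKM, and Amhr2, the receptor of anti-müllerian hormone, at 0.132 ± 0.0141 FPKM. Cytokine receptors were expressed in 19 of 31 rows, or 61.3%. The interferon gamma receptor chains Ifngr1 and Ifngr2 were at 86.1 ± 1.13 and 60.2 ± 4.77 FPKM without overlap, while a still higher row joined Il17rc with its neighbour Creld1 and cannot be assigned to either gene. Il6st, the shared chain gp130, stood at 42.8 ± 11.5 FPKM. Of the 10 Frizzled receptors of WNT ligands 7 were expressed, or 70.0%, led by Fzd6 at 57.2 ± 10.9 FPKM. Of 26 integrins 11 were expressed, or 42.3%, close to the share of all rows. Itgb1, the most common beta chain, was at 749 ± 104 FPKM. Itgb5 and Itgav, which pair on vitronectin, were at 72.5 ± 10.4 and 56.4 ± 2.78 FPKM.

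Growth factor genes held several of the abundant transcripts that differed between samples. Of 42 growth factor and cytokine ligands 24 were expressed, or 57.1% beside 46.2% over all rows, with a median of 3.77 FPKM. Ctgf and Cyr61, matricellular proteins of the CCN family, led with 434, 939 and 1136 FPKM and with 443, 703 and 866 FPKM. Pdgfb had 130, 188 and 227 FPKM, so all 3 of these genes were lowest in replicate 1, and the means of Ctgf, Cyr61 and Pdgfb without it were 1038, 785 and 207 FPKM. Grn, progranulin, was at 164 ± 18.3 FPKM, Csf1, the growth factor of macrophages, at 125 ± 9.75 FPKM and Nrg1, a ligand of ERBB receptors, at 81.9 ± 5.70 FPKM. Of 19 WNT genes 4 were expressed, or 21.1%. The highest were Wnt7b at 84.4, 108 and 121 FPKM and Wnt4, which acts in müllerian duct formation, at 49.7 ± 6.62 FPKM. Wnt7a, known from müllerian epithelium, stood at 0.893, 2.47 and 3.84 FPKM and missed the level in replicate 1 alone. Of 22 FGF genes only Fgf18, at 16.2 ± 2.42 FPKM, was expressed in all 3 samples, which is 4.55% of the list. Without replicate 1 the count of FGF genes was 3, with Fgf7 and Fgf2 added. Of 21 BMP and GDF genes 6 were expressed, or 28.6%, led by Bmp4 at 41.7 ± 8.28 FPKM. Of 7 IGF-binding protein genes only Igfbp7 passed, or 14.3%, at 873, 682 and 909 FPKM.

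Matrix genes of the basement membrane and a fibrillar collagen gene were among the abundant transcripts. Of 42 collagens 15 were expressed, or 35.7% beside 46.2% over all rows. The highest were Col18a1, a basement membrane collagen, at 215 ± 15.9 FPKM, and Col5a2 at 105 ± 22.3 FPKM. The collagen IV chain genes Col4a1 and Col4a2 were at 20.4 ± 5.56 and 16.4 ± 4.31 FPKM, whereas Col1a1 stood at 1.84, 2.92 and 6.73 FPKM. Of 10 laminin chains, a list without Lamb2, 5 were expressed, or 50.0%. Among these 10, Lamb1, Lama5 and Lamc1, the chains of 1 trimer, were the highest at 87.5 ± 5.81, 85.7 ± 14.2 and 32.8 ± 4.33 FPKM. Lama1 reached 0.00864 FPKM at most. Of 23 matrix metalloproteinases 4 were expressed, or 17.4%. The highest were Mmp2, a gelatinase, at 161 ± 35.9 FPKM and Mmp14, its activator on the cell surface, at 39.6 ± 3.20 FPKM. Mmp7, known from many epithelia, was listed at 0. Their inhibitors Timp1, Timp2 and Timp3 were at 120 ± 14.8, 94.2 ± 13.4 and 45.5 ± 18.9 FPKM. Serpinh1, a chaperone of collagen, stood at 381 ± 45.5 FPKM.

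Cell cycle genes were expressed in 22 of 24 cases, or 91.7% beside 46.2% over all rows, with a median of 40.4 FPKM. Cdk4 stood at 543 ± 18.6 FPKM, Ccnd1, cyclin D1, at 111, 271 and 192 FPKM, and Mki67, the antigen Ki-67, at 16.0 ± 1.29 FPKM. Inhibitors were also present, with Cdkn1a at 116 ± 9.43 FPKM and Cdkn2a at 67.6 ± 5.15 FPKM. Of 21 rows of genes often altered in ovarian cancer 20 were expressed, or 95.2%. Mdm2 and Trp53, which form a feedback loop, were at 144 ± 18.5 and 112 ± 15.2 FPKM, Brca1 at 5.21 ± 0.470 FPKM and Brca2 at 1.84 ± 0.199 FPKM. Tert, the catalytic part of telomerase, stood at 1.048, 1.33 and 1.60 FPKM. Xist, expressed from an inactive X chromosome, was at 76.0, 73.6 and 85.4 FPKM, while Eif2s3y, Ddx3y, Uty and Kdm5d, genes of the Y chromosome, reached 0.0338 FPKM at most.

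**Figure D5:**
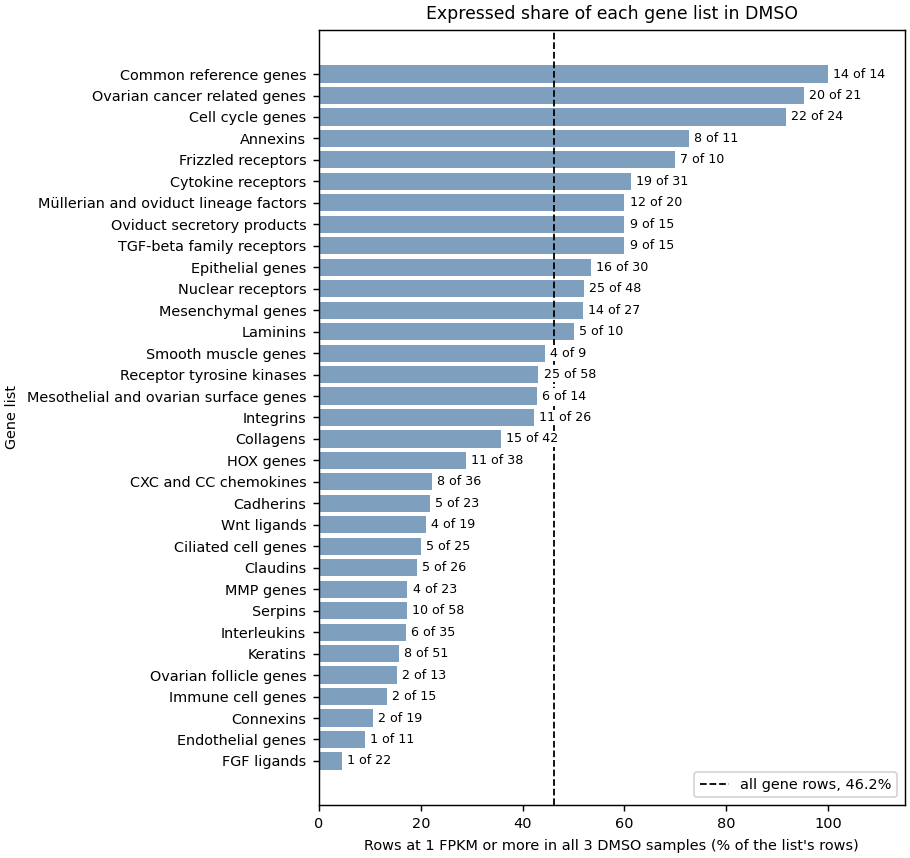
Share of rows at 1 FPKM or more in all 3 DMSO samples for a selection of the gene lists (bars, with counts), and the share over all gene rows (dashed line, 46.2%). Other lists, such as the growth factor ligands, cathepsins and S100 genes, are not drawn. Cell cycle genes (22 of 24) lie far to the right of the line, müllerian lineage factors (12 of 20) to the right of it, and ciliated, endothelial and immune genes to the left.

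Rows listed at 0 need care, because an exact 0 also occurred in genes that every cell uses. In 137 rows a value of 5 FPKM or more in 1 sample stood beside an exact 0 in another. Rps3a, a ribosomal protein gene, was listed at 1008, 1183 and 0 FPKM, and Pgam1, a glycolytic enzyme, at 0, 400 and 367 FPKM. Pkm2, pyruvate kinase, was listed at 0, 517 and 0 FPKM, Itga3, an integrin chain, at 147, 0 and 182 FPKM and Fgfr1 at 0, 50.7 and 48.4 FPKM. Such zeros fell on all samples, 72 on replicate 1, 58 on replicate 2 and 59 on replicate 3. Of the 137 rows, 107 were also at 0 in at least 1 of the 6 treated samples, and 52 were rows of small RNAs. The zeros of Fn1 in replicates 2 and 3 therefore cannot be read as absence. Rows with such a zero, among them Fn1, Rps3a, Itga3 and Fgfr1, were not counted as expressed, so the list counts can be too low. Taking such zeros as missing gave 438 expressed rows over all lists, beside 432 as counted. For the same reason a gene listed at 0 in all 3 samples is reported here as listed at 0 and not as silent. Rows under 0.1 FPKM in all 3 samples, with the zeros included, numbered 9354, or 40.1% of all rows.

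The rows with the largest ratio between samples, among those with a mean of 5 FPKM or more and no 0, included 4 with a small RNA in their name, one of them joined with a longer host gene. Mir425 was listed at 0.453, 0.780 and 26.1 FPKM, and Snora15 at 5.40, 8.62 and 36.8 FPKM. Mir692-1 ran the other way with 43.7, 10.8 and 6.11 FPKM. Among protein-coding genes, Postn, the matrix protein periostin, stood at 1.49, 3.46 and 10.3 FPKM and Col7a1, of anchoring fibrils, at 4.55, 10.2 and 27.6 FPKM. Both were highest in replicate 3, as were Acta2 and Tagln. The gene 1600029D21Rik, named Plet1 in RefSeq and known from placental and epithelial progenitors, stood at 83.8, 20.8 and 14.6 FPKM, and was highest in replicate 1 as Greb1 was.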

How the data were processed

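RNAseq was measured in 9 samples of FVB MOE cells, of which the 3 DMSO samples were described. The authors made FPKM for known genes of a UCSC annotation from trimmed reads placed on mm10. The submitters' processing notes name TopHat2 2.0.8b and Cuffdiff 2.1.1. The deposited values are FPKM, 1 per gene row and sample, and whether a further scaling between libraries entered them is not given in the sources used here. The FPKM files hold no read counts and the study's read totals were not used here, so no counting interval is given. The relative reads of the samples were estimated from ratios of their smallest values, a step tested on simulated data.

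Groups were taken from the treatment label. Rows were kept as deposited, with 362 symbols in several rows and 293 rows with joined names. Means, SD and ranges were computed with Python 3.11.15, numpy 2.4.6 and pandas 2.3.3. A row was called expressed at 1 FPKM or more in all 3 samples. Genes were named by rule. These were the 25 rows of highest mean, the 7 given markers, up to 8 leading members, members at 0 and defining members of each gene list, and up to 10 rows each with the largest ratio between samples or with zeros in only some samples. Further members were named where a reader would look for them, after their values were seen. The members and lists were chosen with earlier results of these data known. List symbols were matched to rows through RefSeq synonyms. Muc16, Dnai1, Dnai2 and Hbb-bt did not match and were not analysed here. Some list members counted are not reported here by name. Promoters and gene spans are RefSeq on GRCm38.p6, the assembly that mm10 names, and transcript lengths are GENCODE. Promoters were not compared between levels of expression, since fewer than 80% of the row names had one in the table. The alternatives were other thresholds, scalings, treatments of zeros and repeated symbols, and each replicate left out. The treated samples were used only to count zeros, and no test between treatments was made.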

Additional observations from a re-analysis of the deposited data

How the results depend on the processing

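No paired analysis was possible because the 3 samples belong to 1 group and no contrast was tested. Expressed rows numbered between 9966 at a threshold of 2 FPKM and 11523 at 0.5 FPKM, beside 10788 at 1 FPKM, and between 10886 and 10906 when each replicate was left out. Rows listed at 0 numbered 5858, and 9354 rows were under 0.1 FPKM in all 3 samples. Leaving out each replicate gave 6191 to 6372 rows at 0. The mean correlation between replicates was 0.986, and was 0.989 over expressed rows alone, 0.996 with zeros in some samples taken as missing, and 0.984 to 0.988 with 1 replicate left out. The share of the top 100 rows lay between 29.5% and 30.6% with 1 replicate left out.

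Taking such zeros as missing moved the means of 77 of 1028 named rows by more than the SD, and summing the rows of a symbol moved 9. Equal totals and equal upper quartiles moved none. Leaving out 1 of 3 values cannot move a mean by more than the SD, so it is no check of stability. At 2 FPKM the ciliated list had 2 expressed rows, the endothelial list 0 and the chemokines 4. At 0.5 FPKM the ovarian follicle list had 5 and the FGF genes 4. The files hold no read counts, so no counting error of the lowest values is given.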

Other observations

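Chemokine and interleukin genes were expressed less often than all rows in the DMSO samples, unlike the list of growth factor and cytokine ligands above. Of 36 rows of CXC and CC chemokines 8 were expressed, or 22.2% beside 46.2% over all rows. The highest were Cxcl1, which attracts neutrophils, at 15.7, 18.2 and 8.87 FPKM, and Ccl27a at 7.27 ± 0.852 FPKM. Ccl2, which attracts monocytes, stood at 1.11, 3.46 and 6.88 FPKM, and Cxcl17 at 9.45, 1.93 and 1.60 FPKM. Their orders of samples were opposite. Of 35 interleukin genes 6 were expressed, or 17.1%. The highest were Il18 at 19.1 ± 4.03 FPKM and Il34, a ligand of the receptor encoded by Csf1r, at 9.42 ± 0.950 FPKM. Il6 was listed at 0 in replicates 1 and 3 and at 0.0714 FPKM in replicate 2.

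Lysosomal proteases were abundant in few members, with 7 of 18 cathepsin genes expressed, or 38.9% beside 46.2% over all rows. Ctsd stood at 859, 667 and 714 FPKM and Ctsl at 559, 294 and 304 FPKM, both highest in replicate 1. Of 11 annexins, a list without Anxa4, 8 were expressed, or 72.7%. Anxa2 stood at 675 ± 30.8 FPKM and Anxa3 at 593 ± 94.4 FPKM, and their ranges overlapped. Of 7 galectins 4 were expressed, or 57.1%, and Lgals3 followed Lgals1 at 437 ± 15.1 FPKM. Of 15 S100 rows 7 were expressed, or 46.7%, close to the share of all rows, with S100a10, the partner of annexin A2, at 627 ± 59.9 FPKM.

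Of 12 red blood cell and neural rows 4 were expressed, or 33.3% beside 46.2% over all rows. The highest mean of the list, 8.76 FPKM, belonged to a row not named here. The beta globin gene Hbb-bs (row Beta-s) was listed at 2.52, 10.8 and 2.94 FPKM, and a row that joins Hba-a1 with Hba-a2 at 2.87, 10.8 and 3.17 FPKM, so that replicate 2 was highest for both. Alas2, the enzyme of haem synthesis in red cells, was at 0.439 ± 0.0645 and 0.190 ± 0.0890 FPKM in its rows. The source of the globin signal was not tested. Mir703, the row of rank 29, had 1701 ± 107 FPKM over a very short span, chr5:98475556-98475664. The libraries were made from polyadenylated RNA, so this value is no measure of the mature microRNA. Which transcripts its reads came from was not tested.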
